A study of Mus musculus with 4 samples.

Results

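Langerhans cells are the antigen-presenting cells that live among the keratinocytes of the epidermis, and 10 genes linked to them or to antigen presentation were examined in mouse dorsal epidermis. The genes were Cd207 (langerin, the Langerhans cell marker), Cd74, H2-Aa, H2-Ab1, H2-Eb1 and H2-DMa (MHC class II presentation), Ctss (cathepsin S), Mfge8 (a secreted bridge to apoptotic cells), and Tyrobp and Fcer1g (signalling adaptors of myeloid and other immune cells). They were chosen by gene name, and all 10 are among the 56493 genes of the count table. Of 4 libraries, 2 were from cKO mice, which lack Stim1 and Stim2 in epithelium through K14-Cre (a recombinase under the keratin 14 promoter), and 2 were from F/F controls (genotype Flox/Flox, Stim1/2fl/fl). STIM1 and STIM2 are calcium sensors of the endoplasmic reticulum that gate store-operated calcium entry, and the comparison asked how losing them in epithelium alters epidermal RNA. RNA came from epidermis freed with sodium thiocyanate from shaved back skin, whereas the series text names keratinocytes as its source. Age, sex and the number of mice behind each library are not given in the sources used here, and nothing says that the libraries of a group came from separate mice, so p-values measure only the spread between these libraries.

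Class II molecules are heterodimers of an alpha and a beta chain that display peptides to CD4 T cells. The chains assemble on the invariant chain encoded by Cd74, cathepsin S trims that chain, and H2-DM then exchanges its remnant for antigenic peptide. Langerhans cells carry class II constitutively, whereas keratinocytes acquire it mainly under interferon gamma. Langerhans cells come from blood-forming precursors and not from keratin 14-expressing epithelium, so the Cre line is directed at their neighbours, and they depend on interleukin 34 made by keratinocytes.

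The genes of the class II chains share short promoter elements, among them the Y box, which holds an inverted CCAAT, and the X box. These elements are shown because the chain genes are described as a group below. Of the 10 genes, 7 were looked up in a RefSeq promoter table (GRCm38.p6, 250 bases before to 50 after each start, 8 entries for these 7 genes). H2-Ab1 and Tyrobp had no entry there, and Cd74 was left out of the search. The letters CTGATTGG (Y box) were searched on both strands and occurred in 2 of the 8 entries, those of H2-Aa and H2-Eb1, and in 4.1% of all 32851 promoters. The letters AACNGATG (part of the X box, not overlapping the Y box letters) occurred in the entries of H2-Eb1 and Ctss and in 2.32% of all promoters. The 150 bases before each start are printed 5′ to 3′ with matches to either motif in capitals, for H2-Aa at chr17:34287824-34287973 (minus strand) and for H2-Eb1 at chr17:34305717-34305866 (plus strand).
H2-Aa: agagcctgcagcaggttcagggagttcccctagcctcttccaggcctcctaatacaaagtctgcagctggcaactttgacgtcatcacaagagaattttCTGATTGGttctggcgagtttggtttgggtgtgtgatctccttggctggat
H2-Eb1: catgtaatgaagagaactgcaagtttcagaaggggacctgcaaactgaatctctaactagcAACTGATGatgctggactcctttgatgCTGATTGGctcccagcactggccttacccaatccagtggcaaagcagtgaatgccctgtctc
The Y box match began 51 bases before the start of H2-Aa and 62 bases before that of H2-Eb1, on the strand of the gene in both. The X box letters began 89 bases before the start of H2-Eb1 and 207 bases before that of Ctss. A match describes the letters and is not a measured binding site.

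The libraries were shallow, with totals from 118858 (cKO replicate 2) to 322426 counts (F/F replicate 2). Values are given as normalised counts (CPM, counts relative to the counts in tested genes, after TMM scaling between libraries). In cKO replicate 2 a single count equals 11.2 CPM, against 3.19 to 5.34 CPM in the other libraries, so that library carries the coarsest values. Both cKO libraries lay below both F/F libraries in CPM for Stim1 (93.0 and 67.4 against 128 and 198, edgeR adjusted p 0.671) and for Stim2 (0 and 11.2 against 16.0 and 57.5, under the count filter). This order was shared by 19.6% of all tested genes, and for Stim2 it is not resolved in cKO replicate 2, where 3 counts equal 33.7 CPM. A block of 7 pseudogenes on chromosome 1, known as a nuclear copy of mitochondrial DNA, took 13.3% and 22.6% of counts in cKO and 13.1% and 7.73% in F/F. Skeletal muscle genes summed to 44.5 and 89.9 CPM in cKO and 1467 and 999.5 CPM in F/F. By the edgeR test 4 of 7 tested genes (Acta1, Myh4, Pvalb and Tnnc2) were lower in cKO, against 0.189% of all tested genes. Acta1, Myh4 and Pvalb passed the count filter through the F/F libraries alone, so they had to differ to be tested. The part of these differences in the values below was not tested.

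Across the whole gene group, no member passed the test. Of the 10 genes, 8 passed the count filter, and edgeR's quasi-likelihood test with Benjamini-Hochberg adjustment called 0 of these 8 at the 0.05 level. Of all 4243 tested genes 0.848% were called, 0.66% as higher and 0.189% as lower in cKO. Before adjustment 1 of the 8 (H2-DMa) was lower with p below 0.05, as were 4.17% of all tested genes. DESeq2 and limma-voom also called 0, with 0 and 1 members below 0.05 before adjustment. The fitted log2 fold change was below 0 in 6 of the 8 genes, against 49.6% of all tested genes, and below -1 in 1 (H2-DMa), against 8.84%. In 1 of the 8 (H2-DMa) both cKO libraries lay below both F/F libraries, against 19.6% of all tested genes, and in 0 of the 8 they lay above, against 18.9%. The median over the 8 was -0.39, beside 0.01 over all tested genes. This median depended on single libraries: leaving out cKO replicate 2 gave -1.43, leaving out cKO replicate 1 gave 0.26 and leaving out F/F replicate 1 gave 0.06.

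**Figure D1:**
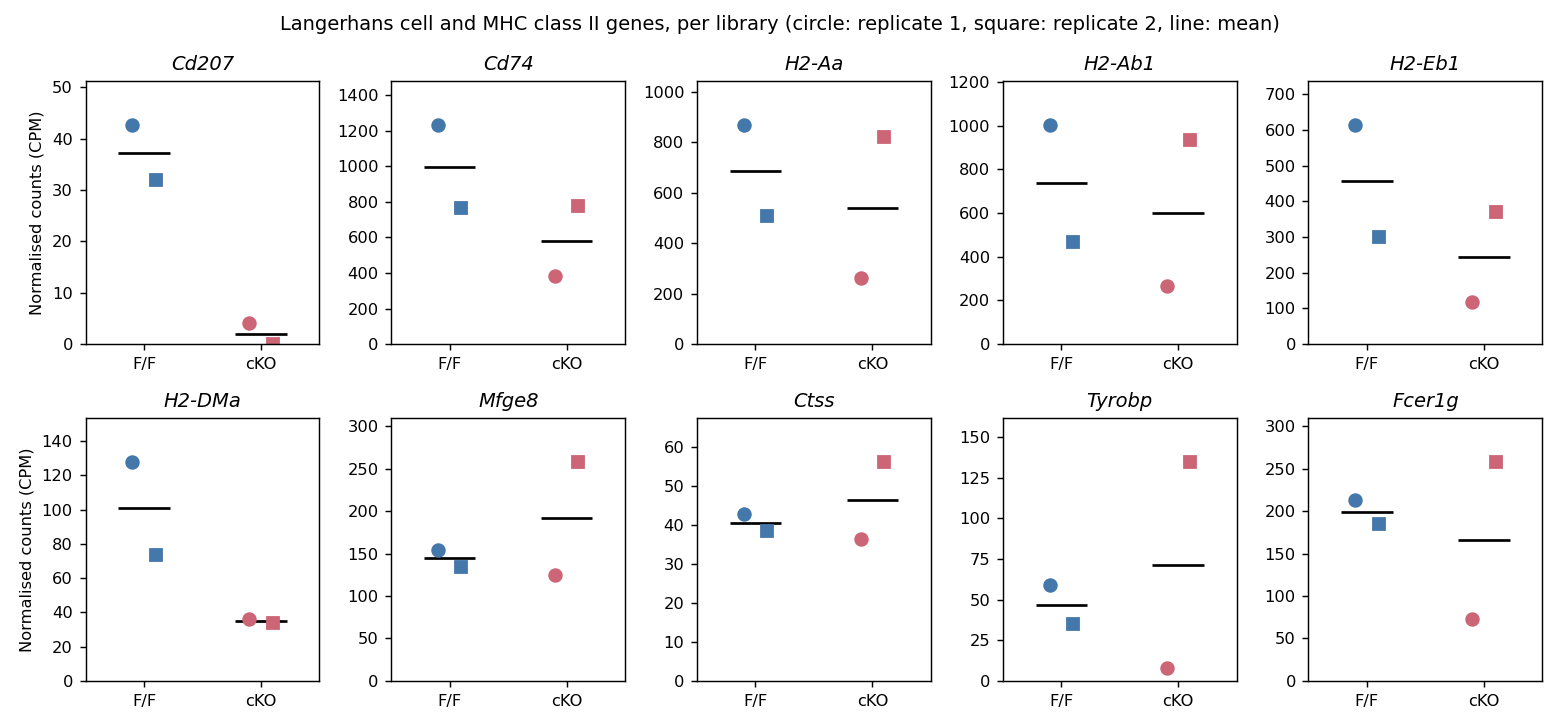
Normalised counts (CPM, vertical axes from 0) of the 10 genes in the F/F and cKO libraries, with 1 point per library and a line at the group mean. Only for Cd207 and H2-DMa do both cKO points lie below both F/F points, and for most other genes cKO replicate 2 lies far above cKO replicate 1.

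Cd207 encodes langerin, the C-type lectin that forms Birbeck granules and defines Langerhans cells. Its counts were 1 (cKO replicate 1), 0 (cKO replicate 2), 8 (F/F replicate 1) and 10 (F/F replicate 2), which is 4.04 and 0 CPM against 42.7 and 31.9 CPM. The cKO libraries were thus at or under 1 count, and the observed values of the groups did not overlap. For cKO replicate 2 this order is not resolved from F/F replicate 2, as given below. Among the tested genes, to which Cd207 does not belong, 19.6% shared this order. In bulk epidermis, fewer Langerhans cells and less Cd207 RNA per cell cannot be told apart.

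Pooled over each group, Cd207 had 1 of 401048 counts in cKO and 18 of 522719 in F/F, a ratio of cKO to F/F of 0.0724 with an exact 95% interval of 0.00174 to 0.459. This interval covers counting error only and ignores the spread between libraries. The count of 0 in cKO replicate 2 allows up to 33.7 CPM (3 counts), a limit that lies above the 31.9 CPM of F/F replicate 2, so in that library alone a difference from F/F replicate 2 was not detectable. Cd207 was under the filter in all 4 libraries and has no value in the main test. In the fit without a filter its log2 fold change was -3.49 with a standard error of 1.45 (edgeR adjusted p 0.808, unadjusted p 0.0162), and it was -3.04 in a fit without cKO replicate 2. Cd207 (ENSMUSG00000034783) lies on chromosome 6, 83648197 to 83654839, minus strand. Coordinates of genes are those of the deposited table, and the build named in the submitters' processing notes is GRCm39.

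The other Langerhans cell markers were near the limit of the depth. Of 20 markers listed beside Cd207, 16 had a count, 4 were tested and 0 were called in either direction. The 4 include Il34, a cytokine of keratinocytes that is listed again below among the cues. No count was seen in either cKO library for 9 of the 20, and in either F/F library for 4. Over all 56493 genes these numbers were 42495 and 41177. The summed level of the 20 markers was 623 and 910 CPM in cKO and 576 and 540 CPM in F/F, but this sum was carried by Epcam, which keratinocytes of the hair follicle also express. Epcam had 408 and 708 CPM in cKO and 267 and 243 CPM in F/F, the opposite order to Cd207 (log2 fold change 1.11, SE 0.45, edgeR adjusted p 0.493). Itgax (CD11c) was at 0 and 3 counts in cKO against 0 and 1 in F/F. Ly75 (the receptor DEC-205) had 2 and 1 against 2 and 1, and Csf1r (the receptor for interleukin 34) had 2 and 0 against 0 and 4. Counts in F/F alone were seen for Adgre1 (0 and 7) and for Itgam and Cx3cr1 (each 0 and 3). The same held for Cd200r1 (2 and 0) and Flt3 (0 and 1), and no listed marker had counts in cKO alone. For Id2 and Sirpa, which were tested, the groups overlapped. For Ptprc (CD45, carried by all leukocytes) the counts were 2 and 4 in cKO against 26 and 18 in F/F. In CPM it was 8.09 and 44.95 against 139 and 57.5, so the groups did not overlap, in the order shared by 19.6% of all tested genes. Its log2 fold change was -2.20 (SE 0.90, edgeR adjusted p 0.494). Ptprc passed the filter through the F/F libraries alone, so a difference was required for it to be tested. Itgax, Ly75, Csf1r, Adgre1, Itgam, Cx3cr1, Cd200r1 and Flt3 were chosen after their values were seen.

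Cd74 encodes the invariant chain, the chaperone that fills the class II groove before antigen is loaded. Its values were 384 and 775 CPM in cKO and 1233 and 763 CPM in F/F, from 95 and 69 against 231 and 239 counts. The cKO replicate 2 value lay just above that of F/F replicate 2, so the groups overlapped. The F/F mean was 998 ± 332 CPM and the cKO mean 580 ± 277 CPM (SD, n = 2 each). The estimated difference was -0.81 on the log2 scale (SE 0.48, 95% interval -1.83 to 0.22, edgeR adjusted p 0.718), and it became -0.40 without cKO replicate 1, -0.42 without F/F replicate 1 and -1.37 without cKO replicate 2. Cd74 (ENSMUSG00000024610) lies on chromosome 18, 60936920 to 60945724, plus strand.

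H2-Aa encodes the alpha chain of the I-A class II molecule. It had 263 and 820 CPM in cKO and 870 and 508 CPM in F/F, from 65 and 73 against 163 and 159 counts. The raw counts were lower in both cKO libraries, but scaled to depth cKO replicate 2 lay between the F/F libraries. The log2 fold change was -0.38 (SE 0.54, 95% interval -1.54 to 0.78, edgeR adjusted p 0.962), which turned to 0.22 without cKO replicate 1 and to 0.06 without F/F replicate 1, and was -1.38 without cKO replicate 2. H2-Aa (ENSMUSG00000036594) lies on chromosome 17, 34501718 to 34506797, minus strand.

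H2-Ab1 encodes the beta chain that pairs with it. It had 267 and 933 CPM in cKO and 1003 and 469 CPM in F/F, from 66 and 83 against 188 and 147 counts. As for the alpha chain, cKO replicate 1 was lowest and cKO replicate 2 lay between the F/F libraries. Its fitted log2 fold change was -0.33 (SE 0.57, 95% interval -1.57 to 0.91, edgeR adjusted p 0.976). It was 0.31 without cKO replicate 1, 0.32 without F/F replicate 1 and -1.45 without cKO replicate 2. H2-Ab1 (ENSMUSG00000073421) lies on chromosome 17, 34476663 to 34488393, plus strand.

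H2-Eb1 encodes the beta chain of the I-E molecule, whose upstream bases are printed above. It had 117 and 371 CPM in cKO and 614 and 300.2 CPM in F/F, from 29 and 33 against 115 and 94 counts. Again cKO replicate 1 was lowest, and cKO replicate 2 was above F/F replicate 2. The log2 fold change was -0.98 (SE 0.57, 95% interval -2.21 to 0.25, edgeR adjusted p 0.716). It was -1.94 without cKO replicate 2, where its adjusted p of 0.0791 was the lowest of any of the 10 genes in any alternative, -0.33 without cKO replicate 1 and -0.37 without F/F replicate 1. H2-Eb1 (ENSMUSG00000060586) lies on chromosome 17, 34524841 to 34535648, plus strand.

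H2-DMa encodes the alpha chain of H2-DM, the catalyst of peptide exchange. It had 36.4 and 33.7 CPM in cKO and 128 and 73.4 CPM in F/F, from 9 and 3 against 24 and 23 counts. Both cKO libraries lay below both F/F libraries. The cKO mean was 35.1 ± 1.89 CPM, against 101 ± 38.6 CPM in F/F (SD, n = 2 each). The small cKO SD does not measure precision, because the cKO replicate 2 value rests on 3 counts of 11.2 CPM each. The log2 fold change was -1.47 (SE 0.68, 95% interval -2.94 to -0.0056, edgeR adjusted p 0.590, unadjusted p 0.0492). It remained below 0 without each library, between -1.82 and -1.04. H2-DMa passed the filter through the F/F libraries alone, so its place among the tested genes itself required a difference. H2-DMb1, which encodes the partner chain and was singled out after seeing its values, was under the filter. Its levels were 20.2 and 44.95 CPM in cKO against 117 and 38.3 CPM in F/F, so the groups overlapped. H2-DMa (ENSMUSG00000037649) lies on chromosome 17, 34338515 to 34358075, plus strand. Its exons share 360 bases with Brd2, which is transcribed from the other strand, and the sources used here do not give whether strand was used in counting. Brd2, a chromatin reader, had 194 and 191 CPM in cKO and 155 and 179 CPM in F/F (adjusted p 0.988).

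**Figure D2:**
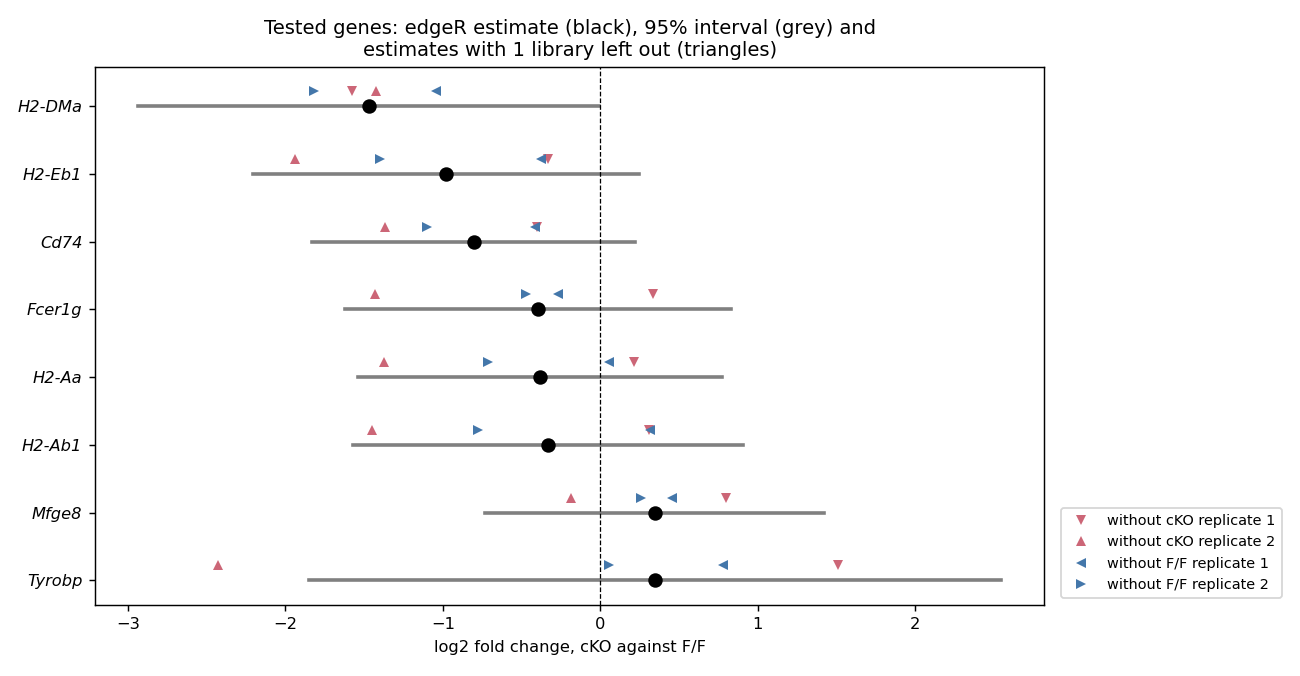
Log2 fold change of cKO against F/F (horizontal axis) for the 8 tested genes, as the edgeR estimate with its 95% interval and as the estimates with 1 library left out. Only the interval of H2-DMa ends below 0, at -0.0056, and the intervals of the other 7 genes hold 0.

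Summed, the class II genes overlapped between the groups as well. Cd74, H2-Aa, H2-Ab1, H2-Eb1 and H2-DMa together made up 0.0936% of all counts in the first cKO library (95% Wilson interval 0.0829% to 0.106%) and 0.22% in the second (0.195% to 0.248%). They took 0.36% in F/F replicate 1 (0.335% to 0.387%) and 0.205% in F/F replicate 2 (0.19% to 0.222%). Within a group the intervals did not meet, while those of cKO replicate 2 and F/F replicate 2 overlapped. Pooled, the share was 0.131% in cKO and 0.265% in F/F, so the pooled cKO share was 49.5% of that in F/F. With each library weighted alike it was 55.4%, and after TMM scaling it was 67.1%. For all 10 genes together the mean share was 0.194% ± 0.111 (SD, n = 2) in cKO and 0.327% ± 0.114 (SD, n = 2) in F/F, a cKO share of 59.2% of that in F/F. Leaving out cKO replicate 1 gave 83.3%, and leaving out cKO replicate 2 gave 35.2%.

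The make-up of the class II counts was compared within each library. Cd74 took 36.0% and 26.4% of the counts of these 5 genes in cKO and 32.0% and 36.1% in F/F. H2-Aa took 24.6% and 28.0% against 22.6% and 24.0%. H2-Ab1 took 25% and 31.8% against 26.1% and 22.2%. Thus the largest departure was in cKO replicate 2, where the share of Cd74 was lowest and those of H2-Aa and H2-Ab1 were highest. H2-Eb1 took 11.0% and 12.6% in cKO and 16.0% and 14.2% in F/F, and the groups did not overlap. For H2-Aa they did not overlap either, with cKO higher. The cKO shares of H2-Eb1 rest on 29 and 33 counts, and no counting interval was computed for these shares. H2-DMa took 3.41% and 1.15% against 3.33% and 3.47%. These are shares of counts within a library, described without a test, and are not levels per length.

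**Figure D3:**
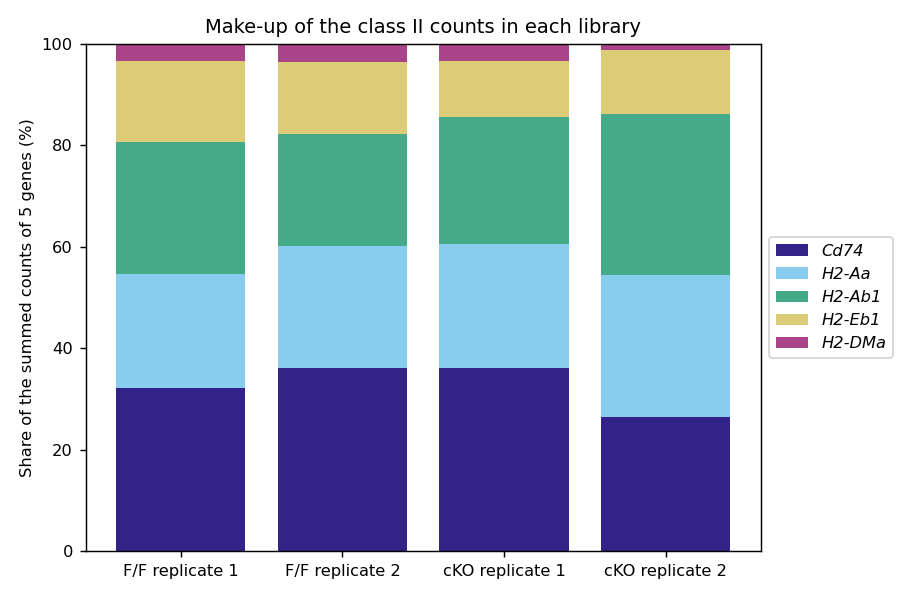
Share of the summed counts of Cd74, H2-Aa, H2-Ab1, H2-Eb1 and H2-DMa that each gene took (vertical axis, percent) in the 4 libraries. Cd74 takes the largest share except in cKO replicate 2, where H2-Ab1 does, and H2-Eb1 is at 11.0% and 12.6% in the cKO libraries and at 16.0% and 14.2% in the F/F libraries.

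Ctss encodes cathepsin S, the protease that cuts the invariant chain. It had 36.4 and 56.2 CPM in cKO and 42.7 and 38.3 CPM in F/F, from 9 and 5 against 8 and 12 counts. The groups overlapped, and the pooled ratio of cKO to F/F was 0.912 with an exact 95% interval of 0.426 to 1.9 for counting error. Ctss was under the filter, and the fit without a filter gave a log2 fold change of 0.04 (SE 0.86). Ctss (ENSMUSG00000038642) lies on chromosome 3, 95434097 to 95463714, plus strand.

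Mfge8 encodes a secreted protein that links phosphatidylserine on dying cells to integrins of phagocytes. It had 125 and 258 CPM in cKO and 155 and 134 CPM in F/F, from 31 and 23 against 29 and 42 counts. The cKO libraries lay on either side of the F/F libraries. The log2 fold change was 0.34 (SE 0.50, 95% interval -0.73 to 1.42, edgeR adjusted p 0.965), and it was -0.19 without cKO replicate 2 and 0.80 without cKO replicate 1. Mfge8 (ENSMUSG00000030605) lies on chromosome 7, 78783516 to 78798808, minus strand.

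Tyrobp encodes DAP12, an adaptor with a tyrosine-based activation motif that serves receptors of myeloid and natural killer cells. It had 8.09 and 135 CPM in cKO and 58.7 and 35.1 CPM in F/F, from 2 and 12 against 11 and 11 counts. The lowest and the highest value were thus both in cKO. Its fitted log2 fold change was 0.35 (SE 1.02, 95% interval -1.85 to 2.55, edgeR adjusted p 0.992), but 1.51 without cKO replicate 1 and -2.43 without cKO replicate 2. It was also below 0 with limma-voom, at -1.70. Tyrobp (ENSMUSG00000030579) lies on chromosome 7, 30113185 to 30117010, plus strand.

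Fcer1g encodes the common gamma chain of Fc receptors, carried by Langerhans cells, mast cells and some T cells. It had 72.8 and 258 CPM in cKO and 213 and 185 CPM in F/F, from 18 and 23 against 40 and 58 counts. As for Tyrobp, the F/F libraries lay between the cKO libraries. The log2 fold change was -0.39 (SE 0.57, 95% interval -1.62 to 0.83, edgeR adjusted p 0.965), and it was 0.34 without cKO replicate 1 and -1.43 without cKO replicate 2. Fcer1g (ENSMUSG00000058715) lies on chromosome 1, 171057141 to 171061934, minus strand.

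Setting each gene against the class II counts of its own library removes the scaling between libraries. Per 100 counts of Cd74, H2-Aa, H2-Ab1 and H2-Eb1, Cd207 stood at 0.392 and 0 in cKO against 1.15 and 1.56 in F/F. Pooled, this was 0.195 in cKO (1 against 513 class II counts, exact 95% Poisson interval 0.00494 to 1.09) and 1.35 in F/F (18 against 1336, 0.798 to 2.13). The values of single libraries did not overlap between the groups, whereas the pooled intervals did. Mfge8 had 12.2 and 8.91 counts per 100 in cKO and 4.16 and 6.57 in F/F. Both cKO values lay above both F/F values, and pooled they were 10.5 (7.91 to 13.7) against 5.31 (4.15 to 6.70). Relative to all counts Mfge8 had a pooled ratio of cKO to F/F of 0.991, and the pooled share of the class II genes with H2-DMa in cKO was 49.5% of that in F/F. After TMM scaling the pooled ratio of Mfge8 was 1.13, and the mean class II level in cKO was 67.1% of that in F/F. The part of each in the higher Mfge8 values per 100 class II counts was not tested. For Fcer1g the groups overlapped, at 7.06 and 8.91 in cKO and 5.74 and 9.08 in F/F. Ctss was at 3.53 and 1.94 against 1.15 and 1.88, with both cKO values above both F/F values. Its 1.94 in cKO replicate 2 came from 5 counts (interval 0.629 to 4.52). The pooled intervals of Ctss overlapped, at 1.49 to 4.58 in cKO and 0.914 to 2.31 in F/F. Tyrobp was at 0.784 and 4.65 against 1.58 and 1.72. H2-DMa had 3.53 in cKO replicate 1, within the 3.44 and 3.60 of F/F, and 1.16 in cKO replicate 2. These ratios carry the counting error of the gene's own count and were not tested between groups. The share of all genes whose ratios do not overlap was not computed.

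**Figure D4:**
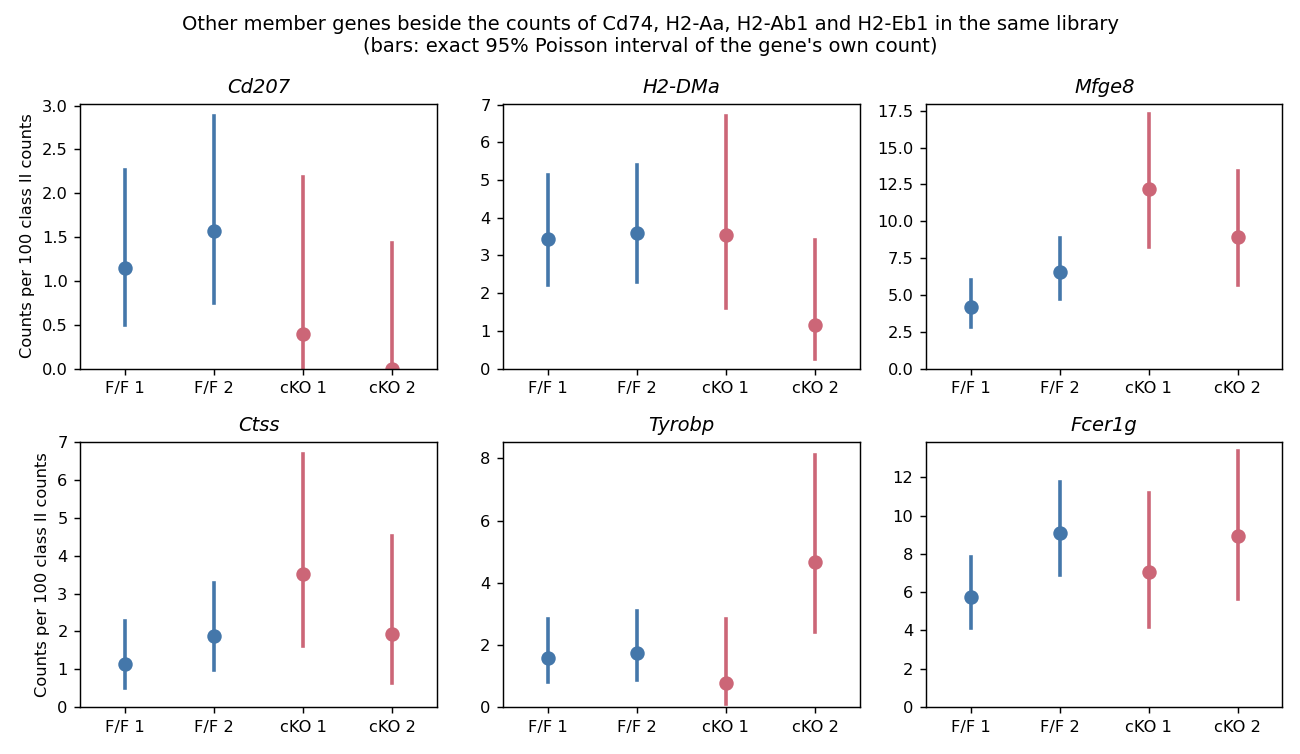
Counts of Cd207, H2-DMa, Mfge8, Ctss, Tyrobp and Fcer1g per 100 counts of Cd74, H2-Aa, H2-Ab1 and H2-Eb1 in the same library (vertical axes), with exact 95% Poisson intervals of the gene's own count. Cd207 is at 0.392 and 0 in cKO and 1.15 and 1.56 in F/F, and Mfge8 is at 12.2 and 8.91 in cKO and 4.16 and 6.57 in F/F.

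The rest of the class II pathway was listed as 22 genes with the members, of which 20 had a count, 9 were tested and 0 were called. Of the 9, 3 were fitted higher and 6 lower, with a median log2 fold change of -0.38. Without the 6 members in the list, 4 genes were tested, 3 fitted higher and 1 lower, with a median of 0.69. Ctsd (cathepsin D, a lysosomal protease of most cells) had 643 and 1158 CPM in cKO and 459 and 492 CPM in F/F (adjusted p 0.632). Ctsl (cathepsin L), also picked with its values known, had 303 and 438 CPM in cKO and 48.0 and 166 CPM in F/F (adjusted p 0.287). For both proteases the groups did not overlap, with cKO higher, an order shared by 18.9% of all tested genes. For Ctsb and Ifi30, also tested, the groups overlapped, with log2 fold changes of 0.48 and -0.61. Ciita, the master regulator of class II transcription, was at 16.2 and 44.95 CPM in cKO and 10.7 and 41.5 CPM in F/F. It was likewise picked with its values known.

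Genes of class I presentation, used by nearly all cells, summed to 2167 and 2203 CPM in cKO and 2257 and 2293 CPM in F/F. Of 18 listed, 12 were tested, 5 were fitted higher, 7 lower and 0 were called, with a median of -0.21. B2m, the light chain of class I, had 388 and 371 CPM in cKO and 299 and 383 CPM in F/F, and H2-K1 had 271 and 247 CPM against 304 and 345 CPM. Of 15 genes induced by interferon gamma, 8 had a count and 0 reached the filter, with summed levels of 64.7 and 67.4 CPM in cKO and 74.7 and 57.5 CPM in F/F. Ifng itself was at 0 in all libraries. Of 12 genes of mature or migrating dendritic cells, 8 had a count and 0 were tested, with summed levels of 84.9 and 56.2 CPM in cKO and 37.4 and 19.2 CPM in F/F. Both cKO sums lay above both F/F sums, and 60.7 CPM of the 84.9 came from Fscn1 (fascin, an actin-bundling protein also made by other cells), which was at 0 in the other 3 libraries. Ccr7, the receptor that guides migration to lymph nodes, was at 0 in all libraries. These counts of 0 allow up to 33.7 CPM in cKO replicate 2 and less in the other libraries.

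Syk and Trem2, named next, were picked with their values known. The myeloid signalling list held 19 genes, of which 13 had a count and only the members Tyrobp and Fcer1g were tested. Without these members the summed level was 84.9 and 67.4 CPM in cKO and 74.7 and 41.5 CPM in F/F. Syk, the kinase that binds the adaptors, had 1 count in cKO replicate 1 and 0 in the other libraries, and Trem2, a receptor that signals through DAP12, was at 0 in all. In the list of apoptotic-cell uptake, 3 of 12 genes were tested (Mfge8, Anxa1 and Gas6) and 0 were called. Gas6, a ligand that bridges dying cells to TAM receptors, had 64.7 and 89.9 CPM in cKO and 256 and 214 CPM in F/F. Its groups did not overlap, in the order shared by 19.6% of all tested genes. The log2 fold change of Gas6 was -1.65 (SE 0.50, edgeR adjusted p 0.220).

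Among 11 genes listed as cues that keep Langerhans cells in the epidermis, 4 were tested, 2 were fitted higher, 2 lower and 0 were called. Il34, the keratinocyte cytokine on which Langerhans cells depend, had 36.4 and 11.2 CPM in cKO and 96.1 and 99.0 CPM in F/F, from 9 and 1 against 18 and 31 counts. Each cKO value lay below each F/F value, as for 19.6% of all tested genes. The cKO replicate 2 value of Il34 is a single count, and 3 counts there equal 33.7 CPM. Its log2 fold change was -1.80 (SE 0.72, edgeR adjusted p 0.480, unadjusted p 0.0254). Il34 passed the filter through the F/F libraries alone and Itgb8 through the cKO libraries alone, so both had to differ to be tested. Itgb8, an integrin subunit that activates TGF-beta, had 68.7 and 78.7 CPM in cKO and 32.0 and 6.39 CPM in F/F (adjusted p 0.590). Cdh1 (E-cadherin, by which Langerhans cells adhere to keratinocytes) had 400 and 584 CPM against 720 and 543 CPM, and its groups overlapped.

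Markers of other cells were read beside these values. Keratinocyte genes were abundant in all libraries, beside the skeletal muscle genes given above and the fibroblast genes below. The 10 listed summed to 14140 and 9384 CPM in cKO and 9477 and 11998 CPM in F/F. Of these 9 were tested, 6 were fitted higher, 3 lower and 0 were called. Krt14 was fitted higher in cKO (log2 fold change 2.04, edgeR adjusted p 0.0507), and Krt10 and Dsp lower (-0.18 and -0.62). Dermal fibroblast genes (7 of 8 with a count) summed to 68.7 and 775 CPM in cKO and 272 and 150 CPM in F/F. That is the order of Tyrobp over the 4 libraries, with cKO replicate 1 lowest and cKO replicate 2 highest, and its part in the values of the 10 genes was not tested. Lyz2, a macrophage lysozyme picked with its values known, was at 4.04 and 214 CPM in cKO and 42.7 and 19.2 CPM in F/F, again in that order. Of 15 macrophage and monocyte genes 12 had a count, summing to 2002 and 5069 CPM in cKO and 2748 and 2363 CPM in F/F, mostly from Apoe and Lgals3, which keratinocytes also express.

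T cell genes (11 of 15 with a count) summed to 352 and 427 CPM in cKO and 635 and 581 CPM in F/F. Of the 5 genes tested 0 were called. Both cKO libraries lay below both F/F libraries for 2 of the 5, against 19.6% of all tested genes. These were Ptprc, which all leukocytes carry, and Fxyd5 (20.2 and 44.95 CPM in cKO against 160 and 83.0 CPM in F/F). Both passed the filter through the F/F libraries alone, so both had to differ to be tested. For Nkg7, Cd3g and Thy1, also tested, the groups overlapped. Thy1, picked with its values known, was highest in cKO replicate 1, at 170 CPM, against 11.2 CPM in cKO replicate 2 and 53.4 and 28.7 CPM in F/F. Natural killer genes summed to 4.04 and 0 CPM in cKO and 53.4 and 19.2 CPM in F/F, from 1 and 0 against 10 and 6 counts. None of them was tested, and 3 counts in cKO replicate 2 equal 33.7 CPM, above the sum in F/F replicate 2. B cell genes summed to at most 25.5 CPM and endothelial genes to at most 6.39 CPM in any library. Mast cell genes summed to 8.09 and 67.4 CPM in cKO and 5.34 and 6.39 CPM in F/F, with Cpa3 and Fcer1a at 0. Of 10 neutrophil genes only Retnlg had a count, with at most 2. Melanocyte genes summed to 137 and 438 CPM in cKO and 331 and 99.0 CPM in F/F, nearly all from Dct.

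The median profile of the 8 tested genes, centred on the log2 scale, lay at -1.10 and 0.60 in the cKO libraries and at 0.70 and -0.06 in the F/F libraries, each in replicate order. Among 3613 other genes that averaged 50 CPM or more, the 5 nearest to this profile by Euclidean distance over the 4 libraries were Rdx (distance 0.127), Tsfm (0.223), Gm20696 (0.231), Atp5e (0.263) and Grpel1 (0.267). Rdx had 60.7 and 202 CPM in cKO and 235 and 134 CPM in F/F. With 4 libraries such a ranking is a description only.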

How the data were processed

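RNA of dorsal epidermis was profiled with a 3' transcriptome kit (QIAseq UPX) in 2 cKO and 2 F/F libraries, per the labels' protocols. The authors deposited whole-number counts per gene, not normalised. Trim Galore 0.6.7, Trimmomatic 0.39, cutadapt 3.7, STAR 2.7.10a, featureCounts 2.0.1 and the build GRCm39 are named in the submitters' processing notes. Use of molecular identifiers, strand and multi-mapping reads is not given in the sources used here.

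Groups and replicate numbers came from the titles. Counts were tested in edgeR 4.0.16 (R 4.3.3) with filterByExpr (minimum count 10, minimum total 15), TMM, glmQLFit and glmQLFTest over 4243 genes, with Benjamini-Hochberg adjustment and a threshold of 0.05. SE is the absolute log2 fold change over the square root of F, and 95% intervals use the test's t quantile. The fit was tested on simulated data. Alternatives were other scalings, other filters, a replicate block, DESeq2 1.42.0, limma-voom (limma 3.58.1) and each library left out. Near copies were searched with blastn 2.17.0 (at least 95% identity over 150 bases), and only Brd2, beside H2-DMa, was found.

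The members and all 19 gene lists were chosen with earlier results of these data known. Named were the 10 members, Stim1, Stim2, Epcam and Ptprc, called list genes or otherwise up to 3 tested list genes with the highest mean CPM, and the 5 nearest profiles. Not all list genes that this rule admits are named. Brd2 is named for its overlap with H2-DMa. Other genes, among them Ifng, Ccr7, Fscn1, Cpa3, Fcer1a and Retnlg, were chosen after their values were seen.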

Additional observations from a re-analysis of the deposited data

How the results depend on the processing

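In every alternative 0 of the member genes tested (8 to 10, and all 10 only with no count filter, without cKO replicate 2 and with the filter on a mean of 10 CPM) were called. Over all genes, 28 were higher and 8 lower, against 49 and 26 with no count filter, 16 and 1 with the replicate block, 12 and 3 with limma-voom, 15 lower with library totals only and 15 lower with a mean of at least 10 CPM. Without single libraries the counts ran from 34 to 59 higher and from 8 to 34 lower. The titles give shared replicate numbers, but nothing says that a number marks a shared litter or day, and the deviations of same-numbered libraries had a correlation across genes of -0.163. A block with crossed numbers, chosen after seeing the data, gave 90 higher and 57 lower genes. The median log2 fold change of the members tested, -0.39, kept its sign under every other scaling, filter, tool and block and ran from -1.43 to 0.26 without single libraries. With library totals only it was -0.69, where the median of all genes shifted to -0.24. The share of the 10 genes in cKO relative to F/F, 59.2%, ran from 35.2% to 83.3% without single libraries. The direction of single genes turned without 1 library for H2-Aa (-1.38 to 0.22), H2-Ab1 (-1.45 to 0.32), Mfge8 (-0.19 to 0.80), Fcer1g (-1.43 to 0.34), Ctss (-0.14 to 0.21) and Tyrobp (-2.43 to 1.51). Tyrobp was also at -0.0542 with the replicate block, -0.10 with the crossed block and -1.70 with limma-voom. The cause was not tested. Where an arm kept 1 library, it was assumed to vary like the other group. Cd74, H2-Eb1 and H2-DMa were below 0 in every alternative, and so was Cd207 in the 3 that gave it a value. Depth limits Cd207, Ctss and Tyrobp most.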
